A study of Mus musculus with 31 samples.

Results

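The interferon-stimulated genes described here are 33 named mouse genes, given as a list of symbols. Each matched exactly 1 of the 39017 genes in a table of raw counts, and all 33 passed the filter on low counts in every fit. They were followed through 31 RNA-seq libraries of orthotopic mouse breast tumours grown in syngeneic hosts, in models titled 4T1 and MT. Both models had the same 4 arms. The combination arm received poly I:C and phenformin, the poly I:C arm poly I:C and PBS, the phenformin arm saline and phenformin, and the control arm saline and PBS. Poly I:C is a man-made double-stranded RNA used as a viral mimic, and phenformin is a biguanide drug that blocks mitochondrial complex I. Each group held 4 libraries, apart from 4T1 phenformin with 3, numbered 1, 2 and 4. All libraries carry the genotype tag WT, and doses, times and the ages of the mice are not given in the sources used here.

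The tags and the titles do not name the same model. Libraries titled 4T1 carry the tissue tag FVB and the cell line tag MT4788, while libraries titled MT carry BALBc and 4T1-537. The series' own design pairs MT with FVB and 4T1 with BALBc. Groups below follow the titles. Each title carries a single cell line tag, so each model stands for 1 line. Nothing in the labels says that replicates came from separate animals, so each p-value measures the spread between libraries, which may be technical.

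Type I interferons bind a receptor made of Ifnar1 and Ifnar2, whose kinases Jak1 and Tyk2 start the signal. It leads to the complex ISGF3, which holds Stat2 and Irf9, binds interferon-stimulated response elements in promoters and induces genes that restrict viruses. Interferon-gamma uses a different receptor and induces a set of genes that partly overlaps. Double-stranded RNA such as poly I:C is detected by Toll-like receptor 3 in endosomes and by helicases of the RIG-I family in the cytosol, which lead to transcription of interferon genes. In a tumour, malignant cells, macrophages, other leukocytes and stromal cells can all express interferon-stimulated genes.

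The element that ISGF3 binds holds GAAA repeats spaced by 2 bases, so the motif of GAAA, any 2 bases and GAAA (TTTC, any 2 bases and TTTC on the other strand) was searched on both strands of RefSeq promoter windows, with overlapping matches counted. Windows ran from 250 bases before to 50 bases after the RefSeq start (GRCm38.p6) and were found for 26 members. The windows not found belong to Oas2, Mx1, Mx2, Usp18, Parp14, Parp9 and Rtp4. For 5 of these members there is more than 1 window, 32 in all. The motif stood in at least 1 window of 10 of the 26 members (38.5%), against 1079 of all 27025 genes with a window (3.99%). Those 10 members were Stat2, Ifit1, Ifit3, Oas1a, Oas3, Ddx60, Rsad2, Isg15, Trim30a and Bst2. A match describes letters and is not a bound site. The 130 bases upstream of the RefSeq start are printed below for 6 members that passed a test in at least 1 comparison. They show the motif overlapping itself (Isg15), in spaced pairs (Ifit1, Ddx60) and singly (Rsad2, Trim30a), and Samd9l, which passed the test in the most comparisons and whose window holds no match. Sequences run 5′ to 3′ on the gene's strand, and capitals mark the motif.
Isg15 (chr4:156200819-156200948, minus strand): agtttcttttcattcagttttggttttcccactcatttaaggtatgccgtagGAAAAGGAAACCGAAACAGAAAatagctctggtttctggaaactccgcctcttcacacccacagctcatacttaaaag
Ifit1 (chr19:34640759-34640888, plus strand): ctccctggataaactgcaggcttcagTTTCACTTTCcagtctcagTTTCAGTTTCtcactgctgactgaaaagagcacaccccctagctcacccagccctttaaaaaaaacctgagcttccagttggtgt
Ddx60 (chr8:61927957-61928086, plus strand): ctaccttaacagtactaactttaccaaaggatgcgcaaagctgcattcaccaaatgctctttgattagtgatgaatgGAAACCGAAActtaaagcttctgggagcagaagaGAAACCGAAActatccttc
Rsad2 (chr12:26456453-26456582, minus strand): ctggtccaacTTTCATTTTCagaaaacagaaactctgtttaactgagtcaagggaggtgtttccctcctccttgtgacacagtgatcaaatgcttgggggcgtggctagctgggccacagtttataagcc
Trim30a (chr7:104465194-104465323, minus strand): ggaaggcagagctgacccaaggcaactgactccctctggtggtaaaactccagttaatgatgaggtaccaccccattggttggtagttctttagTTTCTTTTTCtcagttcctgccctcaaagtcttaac
Samd9l (chr6:3399572-3399701, minus strand): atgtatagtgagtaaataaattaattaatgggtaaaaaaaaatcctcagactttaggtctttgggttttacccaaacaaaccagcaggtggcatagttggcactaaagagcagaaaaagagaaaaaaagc

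Total counts per library ran from 12160110 to 19849915. Values below are CPM, counts of a gene scaled to library size with TMM factors in edgeR. The smallest count of any member in any library was 67, of Mx2. The tumour markers Epcam, Krt8 and Krt18 were present in every library, with Epcam at 183 to 964 CPM. Some libraries stood apart in tissue content. Sox10, a neural crest factor, measured 195, 193, 33.5 and 2.59 CPM in MT phenformin replicates 1 to 4 and 173, 218, 174 and 1.30 CPM in MT control replicates 1 to 4, and at most 3.06 CPM in the 8 other MT libraries. The keratin gene Krt5 was at 1611 CPM in MT phenformin replicate 3, against 21.4 to 37.5 CPM in the other MT libraries with Sox10 above 10 CPM. Krt5 was at 330 to 2452 CPM in MT libraries with lower Sox10. Below, phenformin replicate 3 is left out together with the libraries with high Sox10. The immunoglobulin light chain transcript Igkc was above 1000 CPM in MT combination replicates 1 and 4, MT phenformin replicate 4 and MT poly I:C replicate 3. It was above 100 CPM in 4T1 poly I:C replicate 1, phenformin replicate 2 and control replicate 4. The skeletal muscle actin Acta1 was above 10 CPM in 5 libraries titled 4T1, which were combination replicates 1 and 4, poly I:C replicates 2 and 3 and phenformin replicate 4.

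Divided by the annotated exon length, levels of the members ranged widely. Averaged over all libraries, Bst2 (tetherin, which holds budding virions at the cell surface) had the highest level at 242 CPM per kb of exon. Lgals3bp, a secreted galectin-binding glycoprotein, followed at 121 CPM per kb and Isg15, the ubiquitin-like modifier, at 112 CPM per kb. The dynamin-like antiviral GTPases Mx1 and Mx2 were lowest at 3.98 and 3.70 CPM per kb. The interferon genes themselves were barely detected. Ifnb1 summed to 53 counts over 21 libraries with a count, and no listed Ifna gene exceeded 1 count in any library. Of 13 interferon ligand genes listed, the type II gene Ifng was the 1 that passed the filter on low counts.

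**Figure D1:**
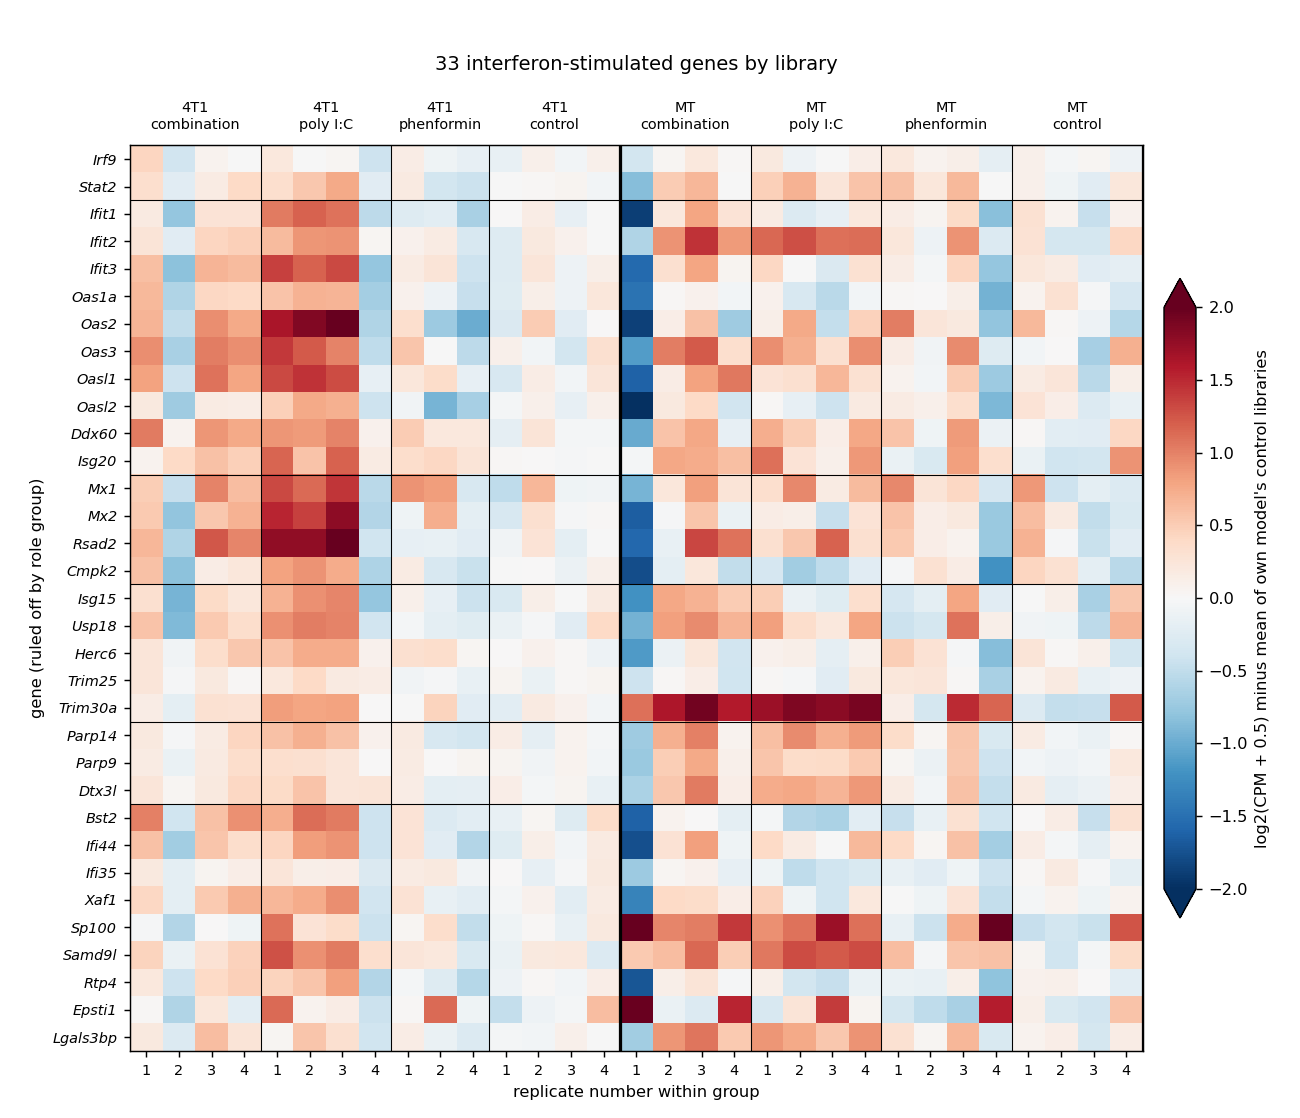
Colour gives log2(CPM + 0.5) of each of the 33 genes (down the page, ruled off by role group) in each library (across, by group and replicate number), minus the mean of the control libraries of the same model. In 4T1, poly I:C replicates 1 to 3 are above the controls for nearly all genes and poly I:C replicate 4 and combination replicate 2 are mostly below them, and in MT the lowest library is combination replicate 1.

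The first comparison asks what poly I:C alone did to these genes in 4T1 tumours. Rsad2 (viperin, a radical SAM enzyme that makes a chain-terminating nucleotide), Samd9l (a factor that restricts poxviruses), Isg20 (a 3′ to 5′ exonuclease), Ddx60 (a helicase-like protein linked to RIG-I signalling), Trim30a (a TRIM family regulator of signalling) and Herc6 (the main Isg15 ligase in mice) rose. None fell, and 27 members did not pass the test. The called share over all 17445 genes tested was 3.26% higher and 3.06% lower. Calls rest on edgeR's quasi-likelihood test, with p adjusted by Benjamini-Hochberg over all genes of the fit and a threshold of 0.05. The log2 fold change was above 0 for 32 of 33 members, with a median of 0.60, against a median of 0.01 over all genes, and 21 members had an unadjusted p under 0.05, as did 4175 genes in all (23.9%). More cells of a responding type and more RNA per cell cannot be told apart in bulk tumours.

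Among the signalling factors, Stat2 measured 144, 165, 192 and 97.4 CPM in 4T1 poly I:C libraries, against 113, 115, 118 and 109 CPM in 4T1 controls. Replicates 1 to 3 were above every control and replicate 4 below every control, and its log2 fold change was 0.42 with an SE of 0.20 (adjusted p = 0.214). Irf9, the DNA-binding partner of Stat2, had a log2 fold change of -0.01 ± 0.16 (SE), the 1 member at or below 0.

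The RNA-binding and RNA-degrading proteins comprised 10 members, of which 2 rose, and their median log2 fold change was 0.86. Isg20 measured 62.6, 41.4, 63.1 and 31.1 CPM with poly I:C, against 28.0, 27.8, 27.4 and 27.5 CPM in controls, and rose by 0.86 with an SE of 0.18 (adjusted p = 0.0165) on the log2 scale. Ddx60 measured 87.3, 85.9, 93.9 and 50.1 CPM with poly I:C, against 41.7, 56.5, 45.8 and 46.0 CPM in controls, a log2 fold change of 0.76 with an SE of 0.21 (adjusted p = 0.0470). All Isg20 values with poly I:C lay above the narrow control range, while poly I:C replicate 4 of Ddx60 lay among its controls. Oas2, an oligoadenylate synthetase that activates RNase L, measured 55.0, 64.1, 84.1 and 11.3 CPM, against 14.1, 24.95, 14.7 and 17.5 CPM in controls. Its log2 fold change was 1.61 with an SE of 0.49 (adjusted p = 0.0629), the largest value among the members, and did not pass the test. Oasl2, an Oas-like protein, measured 265, 322, 309 and 142 CPM, against 184, 204, 169 and 204 CPM in controls, a log2 fold change of 0.47 with an SE of 0.26 (adjusted p = 0.284). For both, replicates 1 to 3 lay above every control and replicate 4 below every control. The Ifit proteins bind viral RNA ends. Ifit1 measured 102, 112, 105 and 34.2 CPM with poly I:C, against 49.8, 54.7, 44.1 and 49.2 CPM in controls. Ifit2 measured 87.1, 103, 104 and 57.4 CPM, against 46.7, 63.8, 59.4 and 55.5 CPM in controls. Ifit3 measured 93.3, 82.3, 90.9 and 20.9 CPM, against 30.0, 42.7, 33.6 and 39.1 CPM in controls. Their log2 fold changes were 0.86, 0.66 and 1.002, with adjusted p = 0.0991, 0.0552 and 0.133, and in replicate 4 Ifit1 and Ifit3 were below every control while Ifit2 was among them. Oas1a, Oas3 and Oasl1 had log2 fold changes of 0.43, 0.95 and 1.13 and did not pass the test.

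Of the 4 GTPases and nucleotide enzymes 1 rose, and their median log2 fold change was 1.16. Rsad2 measured 78.8, 79.0, 98.5 and 17.1 CPM with poly I:C, against 21.6, 27.7, 19.8 and 22.6 CPM in 4T1 controls, a log2 fold change of 1.60 with an SE of 0.43 (adjusted p = 0.0415). Cmpk2, a mitochondrial nucleotide kinase, measured 46.5, 49.7, 44.3 and 17.02 CPM, against 26.3, 26.6, 24.2 and 28.3 CPM in controls, a log2 fold change of 0.60 with an SE of 0.31 (adjusted p = 0.249). In both genes replicate 4 was the lowest of the 8 libraries and replicates 1 to 3 the highest. Mx1 and Mx2 had log2 fold changes of 1.01 and 1.31 and did not pass the test. Mx2 is annotated as a polymorphic pseudogene in the mouse reference.

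Of the 5 members of the ubiquitin and ubiquitin-like system 2 rose. Herc6 measured 104, 116, 117 and 73.8 CPM with poly I:C, against 69.6, 73.4, 70.1 and 64.6 CPM in controls, a log2 fold change of 0.58 with an SE of 0.15 (adjusted p = 0.0367). Trim30a measured 171, 166, 168 and 96.4 CPM, against 82.5, 109, 101 and 91.9 CPM in controls, a log2 fold change of 0.67 with an SE of 0.19 (adjusted p = 0.0477). The Herc6 groups did not overlap, although replicate 4 exceeded the highest control by less than 1 CPM, and the Trim30a groups did. Trim25, the ligase that ubiquitinates RIG-I, measured 159, 182, 155 and 152 CPM, against 142, 126, 140.0 and 143 CPM in controls, a log2 fold change of 0.26 with an SE of 0.08 (adjusted p = 0.0774). Isg15 measured 74.2, 85.9, 89.6 and 26.4 CPM, against 36.9, 49.5, 45.4 and 51.9 CPM in controls, a log2 fold change of 0.61 with an SE of 0.33 (adjusted p = 0.276). Trim25 was higher in every poly I:C library, by little, while Isg15 was far above the controls in replicates 1 to 3 and below them in replicate 4. Usp18, the protease that removes Isg15, had a log2 fold change of 0.75 with an SE of 0.31 (adjusted p = 0.156).

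None of the 3 ADP-ribosylation genes passed the test. Parp14, an ADP-ribosyltransferase, measured 301, 331, 302 and 214 CPM with poly I:C, against 224, 177, 211 and 196 CPM in controls, a log2 fold change of 0.53 with an SE of 0.15 (adjusted p = 0.0556). Dtx3l, a ubiquitin ligase that works in a complex with Parp9, measured 239.6, 273, 218 and 220.3 CPM, against 202, 178, 192 and 166 CPM in controls, a log2 fold change of 0.39 with an SE of 0.11 (adjusted p = 0.0570). The Dtx3l groups did not overlap, and Parp14 replicate 4 lay among the controls. The log2 fold change of Parp9 was 0.25.

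Of the 9 membrane, nuclear and other members 1 rose. Samd9l measured 234, 183, 198 and 123 CPM with poly I:C, against 88.1, 110.1, 112 and 80.2 CPM in 4T1 controls, and rose by 0.93 with an SE of 0.20 (adjusted p = 0.0165) on the log2 scale. Every poly I:C library was above every control. Xaf1, an antagonist of the apoptosis inhibitor Xiap, measured 85.4, 90.4, 103 and 41.0 CPM, against 52.1, 57.0, 46.3 and 59.9 CPM in controls. Lgals3bp measured 245, 347, 297 and 181 CPM, against 230.3, 229, 254 and 237 CPM in controls. Ifi35, an interferon-induced leucine zipper protein, measured 55.1, 50.3, 51.1 and 37.7 CPM, against 46.4, 41.2, 45.7 and 53.0 CPM in controls. All 3 pairs of groups overlapped, with log2 fold changes of 0.59, 0.19 and 0.08 and adjusted p = 0.154, 0.585 and 0.726. Bst2, Ifi44, Sp100, Rtp4 and Epsti1 had log2 fold changes of 0.32 to 0.73, and none passed the test.

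Over all members, 5 had poly I:C libraries that all lay above all 4 controls, namely Samd9l, Isg20, Herc6, Dtx3l and Trim25, and none had the opposite, against 4.86% of all genes higher without overlap and 7.82% lower. The poly I:C libraries were not alike. Relative to the control mean on the log2 scale, the median member was 0.73, 0.80 and 0.89 higher in replicates 1 to 3, and in replicate 4 its value was -0.40. Replicate 4 had the lowest value of its group for 32 of 33 members. It was above every control for 5 members and below every control for 21, against 24.8% and 30.7% of all genes. Replicates 1 to 3 were above every control for 32, 30 and 30 members, against 25.8% to 30.1% of all genes, and below every control for none.

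**Figure D2:**
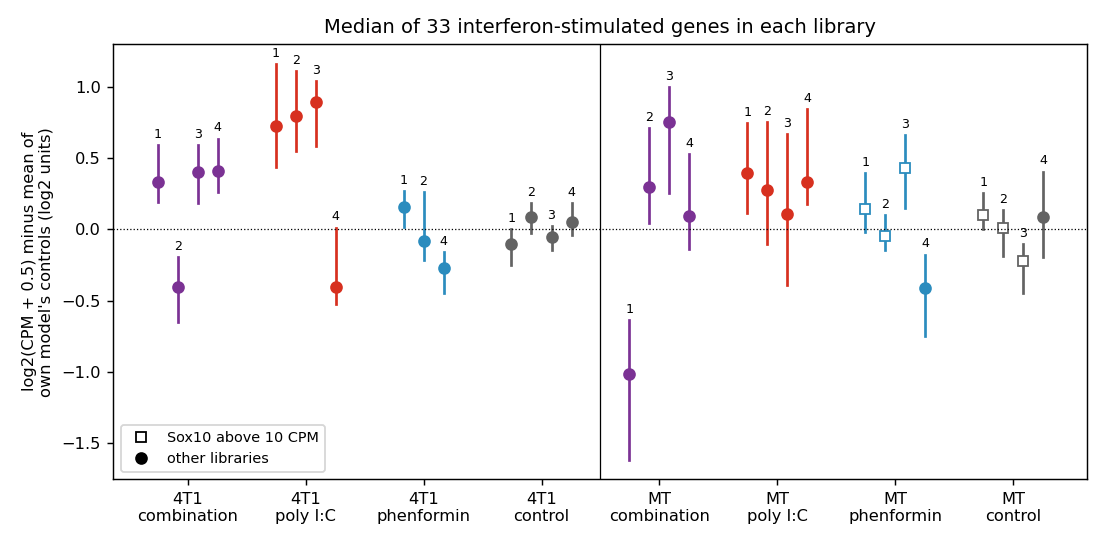
Each point is 1 library, giving the median over the 33 genes of log2(CPM + 0.5) minus the mean of the controls of the same model, with a line from the 25th to the 75th percentile of the genes and the replicate number above it. In 4T1, poly I:C replicate 4 and combination replicate 2 lie below 0 at -0.40 and -0.41, while the other libraries of those groups lie at 0.33 to 0.89.

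Markers of other cells also differed among these libraries. The summed level of 6 neutrophil markers was 660, 275, 799 and 37.3 CPM in 4T1 poly I:C replicates 1 to 4, against 68.7 to 154 CPM in controls, and all 6 were lowest in replicate 4 within the group. The defining marker Ly6g did not exceed 1.09 CPM in these libraries and was at 0 in control replicate 1. The summed level of 5 macrophage markers was 412 to 812 CPM with poly I:C, against 1085 to 1491 CPM in controls. The part of either cell type in the results was not tested. The number of members called was 2 without control replicate 1 or 2 or poly I:C replicate 1 or 3, 1 without control replicate 3 or 4 or poly I:C replicate 2, and 23 when the fourth poly I:C library (replicate 4) was left out, a fit that called 5.58% of all genes higher and 5.81% lower. When any 1 of the 7 other libraries was left out, the members called were Isg20, Samd9l or both. It was 0 without the 5 libraries with Acta1 above 10 CPM, 0 without the 3 libraries with Igkc above 100 CPM, 1 in a fit of these 2 groups alone, and 14 with DESeq2 and with limma voom that also weights each library by its quality (weighted limma voom below). Here and below, a number from a refit without a share of all genes beside it cannot be set against all genes.

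**Figure D3:**
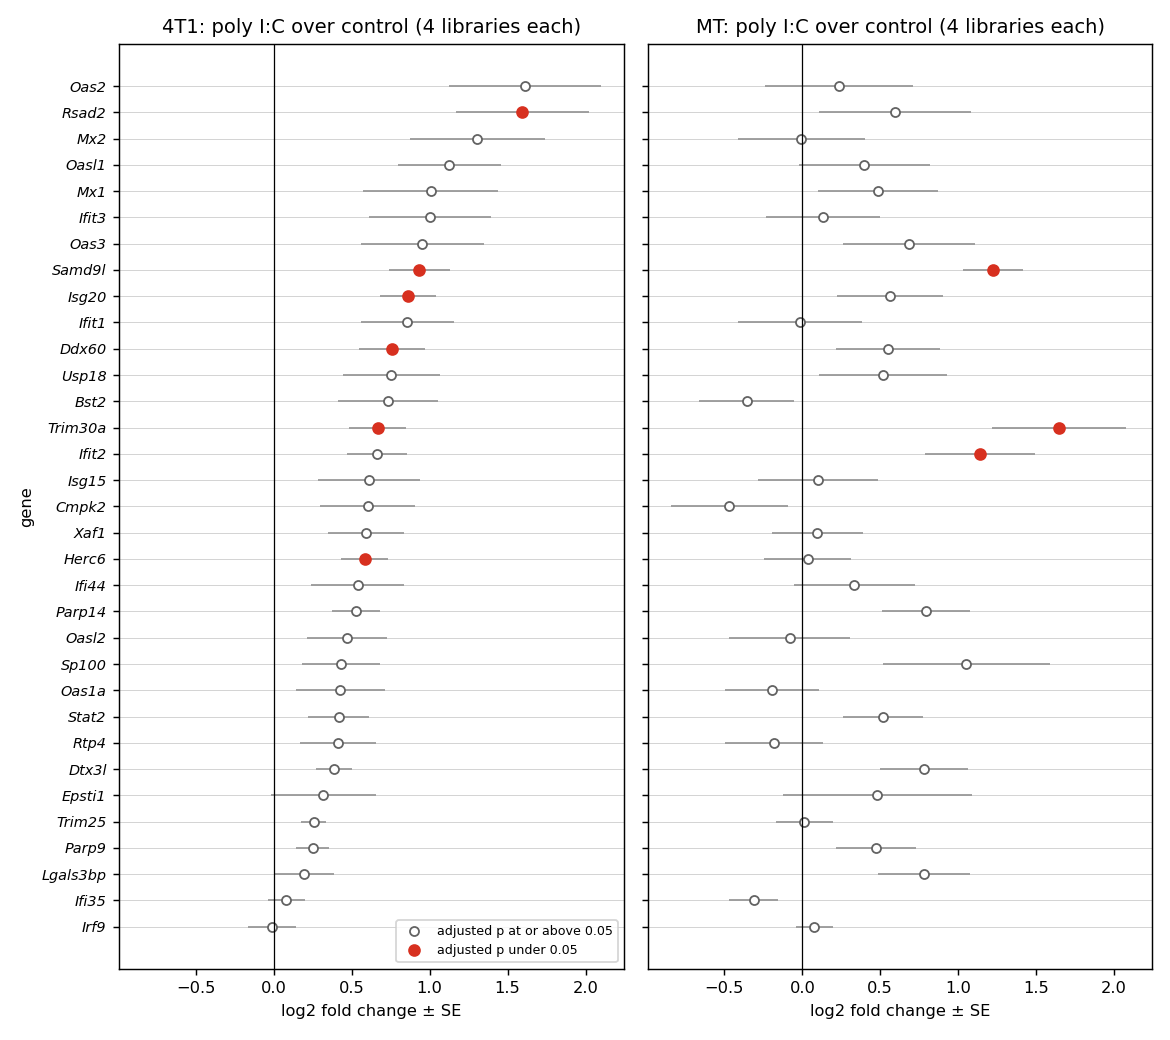
Points give the log2 fold change of poly I:C over control for each gene in 4T1 (left) and MT (right), with bars of 1 SE; filled points have an adjusted p under 0.05. In 4T1 the values run from -0.01 (Irf9) to 1.61 (Oas2) with 6 filled points, and in MT from -0.47 (Cmpk2) to 1.65 (Trim30a) with 3.

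The next question was whether phenformin added to poly I:C changed these genes in 4T1. No member passed the test in either direction between the combination and poly I:C alone, where 0.149% of all genes were higher and 0.0974% lower. The values leaned low. The log2 fold change was below 0 for 31 of 33 members, with a median of -0.40, against -0.003 over all genes, and 7 members, all lower, had an unadjusted p under 0.05 in edgeR, as did 3413 of all 17445 genes (19.6%). These were Samd9l at -0.65 with an SE of 0.20 (adjusted p = 0.106), Trim30a at -0.51, Ifit1 at -0.80, Isg20 at -0.45, Sp100 at -0.58, Oas2 at -1.06 and Mx2 at -0.94. DESeq2 called 1 of them lower (Samd9l), and weighted limma voom called 3 lower (Ifit1, Samd9l and Trim30a). No member was without overlap between these groups, against 5.14% of all genes higher and 3.48% lower.

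The libraries of this arm were mixed in the same way as those of poly I:C alone. Relative to the control mean, the median member was 0.33, 0.41 and 0.41 higher on the log2 scale in combination replicates 1, 3 and 4, and in replicate 2 its value was -0.41. Combination replicate 2 was the lowest of its group for 32 of 33 members and below every control for 22, against 21.2% of all genes. Samd9l measured 131, 87.6, 118 and 132 CPM in 4T1 combination libraries, against the 123 to 234 CPM given above for poly I:C alone. Isg20 measured 29.2, 36.5, 41.7 and 38.6 CPM in combination libraries, against 31.1 to 63.1 CPM with poly I:C. Trim30a measured 106, 83.2, 119 and 117 CPM in combination libraries, against 96.4 to 171 CPM with poly I:C. In all 3 genes the groups overlapped, and poly I:C replicate 4 was the library that overlapped with the combination in Samd9l and Trim30a. Rsad2 measured 36.5, 14.8, 54.5 and 45.2 CPM, Cmpk2 39.8, 14.7, 29.2 and 30.7 CPM and Oas2 28.0, 12.2, 33.5 and 29.5 CPM in combination replicates 1 to 4. Ddx60 measured 97.8, 49.8, 87.3 and 80.0 CPM, Oasl2 216, 116, 213 and 211 CPM and Ifit1 55.8, 28.6, 59.6 and 59.9 CPM. Ifit2 measured 67.1, 47.9, 75.4 and 77.8 CPM, Ifit3 54.9, 20.2, 58.0 and 56.3 CPM and Isg15 56.9, 23.6, 59.4 and 53.4 CPM. In each of these 9 genes replicate 2 was the lowest combination library, and the other 3 lay closer to each other than to it. Herc6 measured 82.1, 66.1, 88.4 and 101 CPM, Trim25 163, 136, 157 and 139 CPM and Stat2 144, 97.1, 128 and 151 CPM. Parp14 measured 229, 198, 226 and 270.0 CPM and Dtx3l 218, 189, 209 and 244 CPM. Xaf1 measured 71.7, 46.6, 77.2 and 87.8 CPM, Lgals3bp 273, 197, 366 and 285 CPM and Ifi35 53.2, 40.5, 48.2 and 50.7 CPM. Replicate 2 was again lowest in each. Without poly I:C replicate 4, edgeR called 8 members lower in the combination than with poly I:C. They were Ifit1, Isg20, Mx2, Oas2, Rsad2, Samd9l, Sp100 and Trim30a, in a fit that called 4.51% of all genes higher and 3.60% lower. That fit left out the library lowest for most members in 1 group and kept its counterpart, combination replicate 2. It therefore cannot show whether phenformin lowered these genes. In the 7 other omissions of a single library no member was called.

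Against controls, the 4T1 combination had no called member, and no gene of the whole table was called in this comparison (0% higher and 0% lower). The log2 fold change was above 0 for 31 members, with a median of 0.25, against 0.001 over all genes. Ddx60 at 0.74 with an SE of 0.21 (adjusted p = 0.165) and Isg20 at 0.41 ± 0.18 (SE) were the 2 members with an unadjusted p under 0.05, as had 11.9% of all genes, DESeq2 called 1 (Ddx60) and weighted limma voom 0. Isg20 was the 1 member whose groups did not overlap, against 3.92% of all genes higher and 4.67% lower without overlap.

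Phenformin alone left no called member in 4T1 (0% of all genes called in either direction). No member had an unadjusted p under 0.05, against 1753 of all genes, DESeq2 and weighted limma voom each called 0, and the log2 fold changes ran from -0.51 (Oasl2) to 0.52 (Mx1) with a median of -0.03. Samd9l measured 115, 112 and 78.4 CPM, Isg20 35.6, 36.9 and 33.3 CPM and Ddx60 67.6, 54.5 and 54.6 CPM in phenformin replicates 1, 2 and 4. Rsad2 measured 20.3, 20.4 and 19.4 CPM, Cmpk2 29.6, 21.01 and 19.2 CPM and Oas2 22.0, 10.2 and 8.47 CPM. Isg20 was above every control in all 3 libraries, and Rsad2 lay at the lower end of the controls. Ifit1 measured 41.0, 42.5 and 31.3 CPM, Ifit2 59.2, 62.8 and 45.0 CPM and Ifit3 40.5, 43.3 and 26.8 CPM. Oasl2 measured 181, 99.8 and 119 CPM, Isg15 48.7, 40.5 and 33.8 CPM and Stat2 128, 87.7 and 84.2 CPM. All Ifit1 values lay below all 4 controls, and in Oasl2 and Stat2 replicates 2 and 4 did. Isg20 higher and Ifit1 lower were the 2 members without overlap, against 5.19% of all genes higher and 6.46% lower. Herc6 measured 86.96, 88.4 and 71.3 CPM, Trim25 131, 135 and 124 CPM and Trim30a 94.6, 129.8 and 81.2 CPM. Parp14 measured 228, 161 and 155 CPM and Dtx3l 204, 161 and 162 CPM. Xaf1 measured 65.6, 48.4 and 46.2 CPM, Lgals3bp 264, 216 and 196 CPM and Ifi35 51.8, 53.0 and 44.2 CPM. Replicate 4 of phenformin was the lowest of its group for 28 members and below every control for 23, against 24% of all genes.

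Set against phenformin alone, the combination had no called member (0% of all genes), a median log2 fold change of 0.33 and 3 members with an unadjusted p under 0.05 (Dtx3l, Trim25 and Parp14, all higher), against 12.5% of all genes, and DESeq2 and weighted limma voom called 0. Trim25 was the 1 member without overlap, higher in the combination, against 5.72% of all genes higher and 6.68% lower. The interaction asks whether the effect of poly I:C differed between tumours with and without phenformin, and was called for no member (0% of all genes) by edgeR, DESeq2 or weighted limma voom. Its log2 value was below 0 for 28 members with a median of -0.32. An unadjusted p under 0.05 was found for 9.33% of all genes and for 4 members, Isg20 at -0.79, Samd9l at -0.71, Trim30a at -0.58 and Herc6 at -0.52. Averaged over both backgrounds, poly I:C raised 8 members and lowered none, against 4.68% of all genes higher and 3.31% lower. The smallest adjusted p was that of Dtx3l, at 0.35 with an SE of 0.08 (adjusted p = 0.0241). The others were Samd9l (0.58), Rsad2 (1.26), Parp14 (0.45), Trim25 (0.24), Ddx60 (0.60), Oas2 (1.28) and Isg20 (0.46), given as log2 fold changes. That number was 24 without poly I:C replicate 4 (6.04% of all genes higher and 4.76% lower), 0 without poly I:C replicate 2 or without phenformin replicate 2 or 4, 0 without the libraries with Acta1 above 10 CPM or with Igkc above 100 CPM, and 16 with DESeq2. It was 5 without control replicate 1, phenformin replicate 1 or poly I:C replicate 3, 4 without control replicate 2, 3 without combination replicate 1 or 3, and 2 without combination replicate 4 or control replicate 3 or 4.

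**Figure D4:**
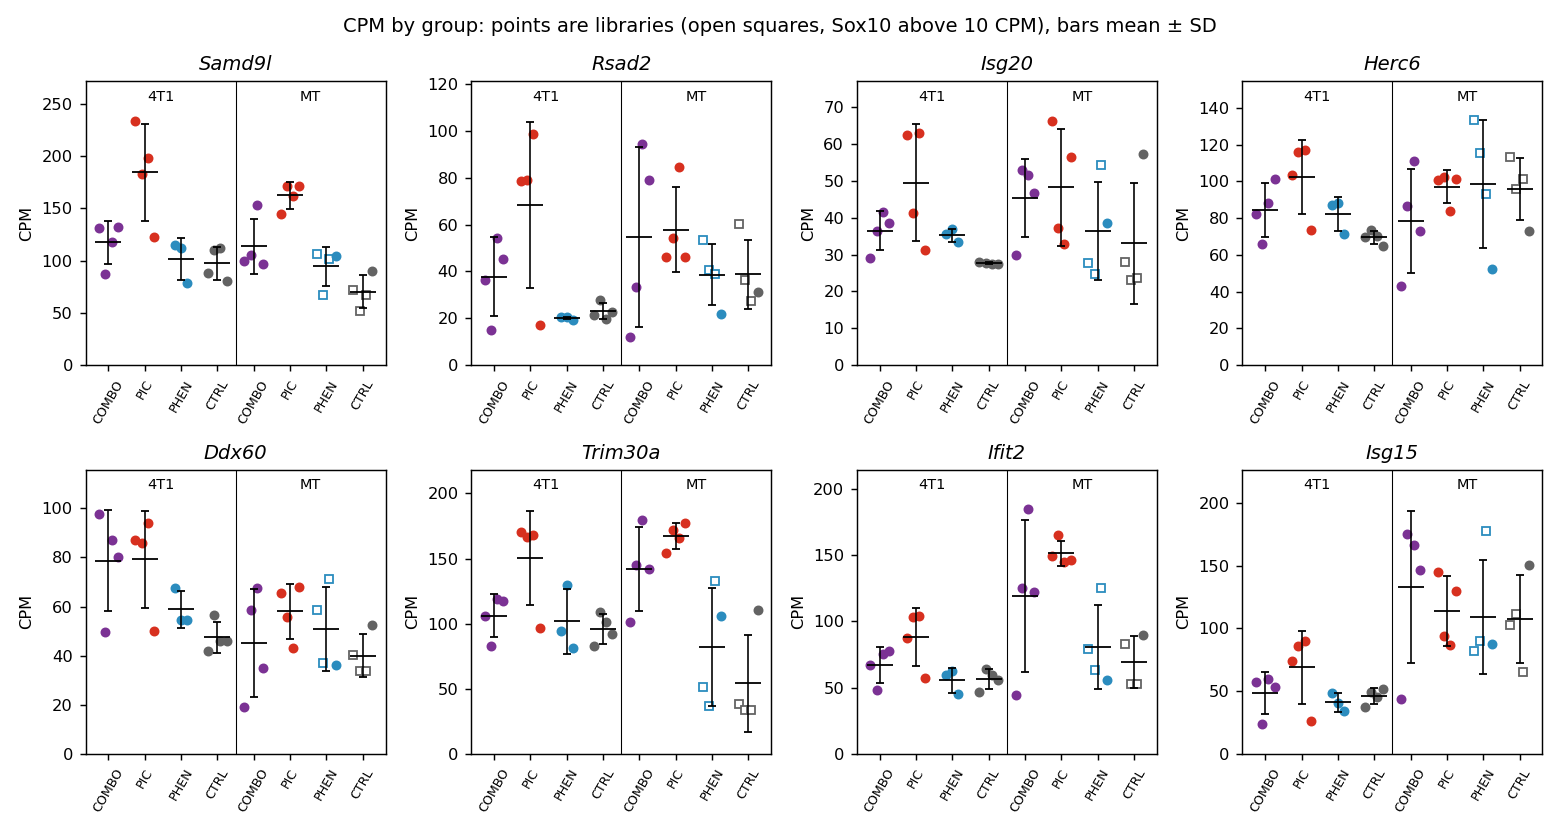
CPM (linear axis from 0) of 8 genes by group, with a point for each library, open squares for libraries with Sox10 above 10 CPM, and bars for the mean ± SD; COMBO is the combination, PIC poly I:C, PHEN phenformin and CTRL control. Samd9l is above every control in all poly I:C libraries of both models, at 123 to 234 CPM in 4T1 and 145 to 171 CPM in MT, and Rsad2 spreads from 17.1 to 98.5 CPM within 4T1 poly I:C.

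In MT tumours, Samd9l, Trim30a and Ifit2 were called higher with poly I:C alone than in controls. No member fell, and 30 did not pass the test. Over all 17857 genes tested, 8.52% were called higher and 11.1% lower. The share of members called higher was close to that of all genes. The median log2 fold change was 0.40, with 25 members above 0, against 0.01 over all genes, and 6 members had an unadjusted p under 0.05, as did 6352 genes in all (35.6%). Without overlap between the groups 9 members were higher and none lower, against 12.2% and 12.9% of all genes. The 6 that did not pass the test were Parp14, Dtx3l, Parp9, Lgals3bp, Stat2 and Oasl1.

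Samd9l measured 145, 171, 162 and 171 CPM in MT poly I:C libraries, against 71.6, 52.1, 67.5 and 90.0 CPM in MT controls, and rose by 1.22 with an SE of 0.19 (adjusted p = 0.00197) on the log2 scale. Trim30a measured 154, 172, 165 and 177 CPM, against 38.6, 33.5, 33.9 and 110.2 CPM in controls, a log2 fold change of 1.65 with an SE of 0.43 (adjusted p = 0.0179). Ifit2 measured 149, 166, 144 and 146 CPM, against 82.5, 52.8, 52.6 and 90.0 CPM in controls, a log2 fold change of 1.14 with an SE of 0.35 (adjusted p = 0.0364). The treated libraries of each gene lay close together, and control replicate 4 was the highest control in all 3. Parp14 measured 315, 402, 339 and 374 CPM with poly I:C, against 234, 201, 189.7 and 210.3 CPM in controls, a log2 fold change of 0.79 with an SE of 0.28 (adjusted p = 0.0623). Dtx3l measured 342, 347, 327 and 373 CPM, against 229.6, 179, 187 and 223 CPM in controls, a log2 fold change of 0.78 with an SE of 0.28 (adjusted p = 0.0648). Lgals3bp measured 586, 540.1, 464 and 595 CPM, against 333, 350.1, 249 and 353 CPM in controls, a log2 fold change of 0.78 with an SE of 0.30 (adjusted p = 0.0775). Stat2 measured 165, 191, 140.4 and 176 CPM, against 127, 111, 101 and 138 CPM in controls, a log2 fold change of 0.52 ± 0.26 (SE). In these 4 genes every poly I:C library was above every control, by a small margin in Stat2.

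Other members that had been high in 4T1 poly I:C replicates 1 to 3 overlapped with the controls in MT. Rsad2 measured 46.4, 54.2, 84.6 and 46.1 CPM with poly I:C, against 60.3, 36.3, 27.2 and 31.4 CPM in MT controls, a log2 fold change of 0.59 ± 0.49 (SE). Cmpk2 measured 47.4, 36.8, 41.9 and 51.2 CPM, against 81.0, 73.6, 52.3 and 40.8 CPM in controls, a log2 fold change of -0.47 ± 0.37 (SE). Oas2 measured 34.5, 53.7, 22.5 and 43.9 CPM, against 49.9, 32.1, 29.5 and 21.2 CPM in controls, a log2 fold change of 0.23 ± 0.48 (SE). Within these groups single libraries ranged more than 2-fold in Oas2 controls and treated libraries alike. Ifit1 measured 110.4, 81.4, 87.8 and 113 CPM with poly I:C, against 121, 104, 70.9 and 105 CPM in controls. Ifit3 measured 119, 88.9, 72.7 and 109.7 CPM, against 105, 99.8, 76.3 and 78.8 CPM in controls. Isg15 measured 145, 93.8, 86.6 and 129.8 CPM, against 103, 111, 65.3 and 150.3 CPM in controls. Their log2 fold changes of -0.01, 0.13 and 0.10 were smaller than their SEs of 0.40, 0.37 and 0.38. Oasl2 measured 263, 231, 195 and 294 CPM, against 314, 285, 215 and 234 CPM in controls. Herc6 measured 101, 102, 83.7 and 101 CPM, against 113, 95.7, 101 and 72.9 CPM in controls. Trim25 measured 151, 146, 127 and 171 CPM, against 156, 168, 134 and 138 CPM in controls. The groups of these 3 also overlapped, with log2 fold changes of -0.08, 0.03 and 0.01. Isg20 measured 66.4, 37.3, 33.02 and 56.4 CPM, against 28.1, 23.0, 23.7 and 57.4 CPM in controls. Ddx60 measured 65.4, 55.6, 43.2 and 67.8 CPM, against 40.2, 33.9, 33.6 and 52.3 CPM in controls. In both genes control replicate 4 lay within the treated range and the other 3 controls below it, and the log2 fold changes were 0.56 and 0.55. Xaf1 measured 126, 86.2, 69.6 and 106 CPM, against 88.8, 95.9, 85.9 and 95.8 CPM in controls. Ifi35 measured 75.3, 55.8, 60.04 and 64.5 CPM, against 81.3, 90.4, 78.7 and 69.7 CPM in controls. Ifi35, at a log2 fold change of -0.31 ± 0.16 (SE), was 1 of 8 members at or below 0, along with Cmpk2, Bst2 at -0.36 and Oas1a at -0.19. The other 11 members had log2 fold changes of -0.18 (Rtp4) to 1.05 (Sp100).

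Tumour state moved with this comparison. Sox10 was at 173 to 218 CPM in 3 of the 4 MT controls and at most 2.25 CPM in the 4 poly I:C libraries, so that poly I:C and this tumour state cannot be told apart in most of the comparison. In the 1 control with low Sox10, replicate 4, Samd9l was at 90.0 CPM, Trim30a at 110.2 CPM and Ifit2 at 90.0 CPM, below each poly I:C library. Without the 6 MT libraries with Sox10 above 10 CPM no member was called by edgeR. Samd9l then had a log2 fold change of 0.88 (adjusted p = 0.229), Trim30a 0.63 (adjusted p = 0.352) and Ifit2 0.78 (adjusted p = 0.644), with 1 control library left, assumed to vary like the other groups. The summed level of 5 macrophage markers was 883 to 1075 CPM in MT poly I:C libraries, against 258 to 348 CPM in MT controls, and its part in the result was not tested. The number of members called was 1 without control replicate 1, 2 or 3, 5 without control replicate 4 and 2 without any 1 poly I:C library, and it was 6 with DESeq2, 16 with weighted limma voom (14 higher and 2 lower, against 30.5% and 29.1% of all genes), 8 in a fit of the 2 groups alone and 9 without the 4 MT libraries with Igkc above 1000 CPM.

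Samd9l was called higher in the MT combination than in controls, with no other member called, against 2.81% of all genes higher and 3.33% lower. The share of members called was close to the share of all genes called higher. Samd9l measured 99.8, 106, 153 and 97.2 CPM in MT combination libraries, against the 52.1 to 90.0 CPM of MT controls, a log2 fold change of 0.70 with an SE of 0.19 (adjusted p = 0.0471). Trim30a measured 102, 145, 179.7 and 142 CPM in combination libraries, a log2 fold change over controls of 1.403 with an SE of 0.43 (adjusted p = 0.0611). Every Samd9l value lay above every control, and combination replicate 1 of Trim30a lay below control replicate 4. Sox10 was at most 3.06 CPM in the combination libraries and at 173, 218 and 174 CPM in control replicates 1 to 3. The combination and this tumour state therefore cannot be told apart in most of the comparison. In control replicate 4, where Sox10 was low, Samd9l was at 90.0 CPM. Samd9l was the 1 member without overlap, against 5.89% of all genes higher and 6.36% lower. The median log2 fold change of the members was 0.18, and 4 of 33 had an unadjusted p under 0.05, against 5323 of all 17857 genes (29.8%).

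Combination replicate 1 stood apart in MT. It was below every control for 28 members and above every control for 3 (Samd9l, Sp100 and Epsti1), against 31.5% and 32.7% of all genes. Ifit1 measured 26.4, 114, 171 and 119 CPM, Ifit2 44.3, 126, 184 and 122 CPM and Ifit3 29.8, 111, 155 and 92.7 CPM in MT combination replicates 1 to 4. Rsad2 measured 12.1, 33.2, 94.6 and 78.9 CPM, Cmpk2 17.2, 52.3, 70.3 and 42.3 CPM and Oas2 8.35, 34.7, 47.95 and 19.2 CPM. Oasl2 measured 61.0, 296, 341 and 198 CPM, Ddx60 19.2, 58.5, 67.5 and 35.2 CPM and Isg20 29.9, 52.9, 51.8 and 46.8 CPM. Replicate 1 was lowest in all 9, and replicate 3 was highest in all but Isg20. Isg15 measured 44.0, 176, 166 and 147 CPM, Herc6 43.0, 86.8, 111 and 72.8 CPM and Trim25 111, 151, 162 and 113 CPM. Parp14 measured 127, 341, 417 and 217 CPM, Dtx3l 130.5, 296, 417 and 223 CPM and Stat2 65.6, 168, 188 and 118 CPM. Xaf1 measured 35.9, 120.4, 119 and 101 CPM, Lgals3bp 197, 588, 671 and 459 CPM and Ifi35 48.2, 81.5, 84.8 and 71.4 CPM. Replicate 1 was again lowest in each, and replicate 4 lay between it and replicates 2 and 3 in all 9, close to replicate 1 in Trim25. That library also had the highest Igkc of the series, at 8738 CPM, and the lowest Epcam, at 183 CPM, and the part of its tissue content in these values was not tested. Without it Ifit2 and Lgals3bp were called higher over controls and Samd9l was not. The call of Samd9l held in 1 of 8 omissions of a single library, that of control replicate 4, where Isg20, Sp100 and Trim30a were called too and 15.8% of all genes were higher and 13.8% lower. The number of members called was 0 without any other combination library or without control replicate 1, 2 or 3, 14 with weighted limma voom and 2 with DESeq2. The shares of all genes called in these fits are not given here.

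Against poly I:C alone, the MT combination had no called member (0% of all genes), a median log2 fold change of -0.14 and 1 member with an unadjusted p under 0.05 in edgeR, against 6.03% of all genes, Samd9l at -0.52 with an SE of 0.19 (adjusted p = 0.817). DESeq2 called 0, and weighted limma voom called 2, 1 in each direction. No member was without overlap, against 3.56% of all genes higher and 2.51% lower. Against phenformin alone edgeR called no member, against 0.0784% of all genes higher and 0.028% lower, and none had an unadjusted p under 0.05, against 13.2%. DESeq2 called 0 and weighted limma voom 10, and the shares of all genes called by these methods are not given here. No member was without overlap, against 1.93% of all genes higher and 2.16% lower. Sox10 was above 10 CPM in phenformin replicates 1 to 3 and at most 3.06 CPM in the combination. Treatment and tumour state cannot be told apart in most of this comparison. The same holds for the average over both backgrounds below. The interaction was called for no member by edgeR, DESeq2 or weighted limma voom (0% of all genes), and 1 member had an unadjusted p under 0.05, against 9.91% of all genes, Samd9l at -0.97 with an SE of 0.27 (adjusted p = 0.385). Averaged over both backgrounds, 9.32% of all genes were called higher with poly I:C and 13.6% lower. The share of members called higher was close to this, with 3 members higher and none lower. These were Samd9l at 0.74 with an SE of 0.14 (adjusted p = 0.00309), Trim30a at 1.21 and Ifit2 at 0.85 on the log2 scale. This number was 7 without combination replicate 1, 5 without control replicate 4 or phenformin replicate 3 or 4, and 0 without the libraries with high Sox10.

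Phenformin alone had no called member in MT (0% of all genes). Samd9l, at a log2 fold change of 0.45 ± 0.19 (SE), was the 1 member with an unadjusted p under 0.05, against 6.07% of all genes, and DESeq2 and weighted limma voom each called 0. No member was without overlap, against 0.935% of all genes higher and 1.75% lower. The libraries differed among themselves. Samd9l measured 106, 67.0, 102 and 104 CPM, Trim30a 51.7, 36.7, 133 and 106 CPM and Ifit2 78.8, 63.1, 126 and 55.4 CPM in MT phenformin replicates 1 to 4. Isg15 measured 81.7, 89.6, 178 and 87.8 CPM, Isg20 27.8, 24.8, 54.5 and 38.7 CPM and Ddx60 58.5, 37.2, 71.3 and 36.3 CPM. Rsad2 measured 53.6, 40.5, 38.8 and 21.9 CPM, Cmpk2 59.0, 73.6, 66.3 and 25.6 CPM and Oas2 64.6, 37.7, 36.5 and 18.1 CPM. Replicate 3 was highest in Trim30a, Ifit2, Isg15, Isg20 and Ddx60, and replicate 4 was lowest in Rsad2, Cmpk2 and Oas2. Krt5 was at 37.5, 33.4, 1611 and 1029 CPM in replicates 1 to 4, and the part of this difference in the values was not tested. Ifit1 measured 109, 102, 128 and 54.9 CPM, Ifit3 98.5, 86.7, 120.4 and 51.9 CPM and Oasl2 292, 278, 326 and 138 CPM. Herc6 measured 133, 115, 93.2 and 52.5 CPM, Trim25 173, 175, 150.4 and 94.3 CPM and Stat2 178, 139, 186 and 117 CPM. In all 6 genes replicate 4 was lowest. Parp14 measured 268, 214, 305 and 168 CPM and Dtx3l 227, 196, 306 and 146 CPM. Xaf1 measured 91.5, 86.6, 111 and 65.7 CPM, Lgals3bp 393, 328, 504 and 256 CPM and Ifi35 72.1, 68.1, 75.3 and 59.6 CPM. Replicate 3 was highest and replicate 4 lowest in these 5 genes. Replicate 3 was above every control for 20 members, against 13.6% of all genes, and replicate 4 was below every control for 19, against 31.3%.

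Untreated tumours of the 2 models were compared next. In 4T1 controls, Ifi35, Cmpk2, Ifit3, Isg15, Ifit1 and Xaf1 were lower than in MT controls and Trim30a was higher, against 26.7% of 18956 genes higher and 25.2% lower. In both directions the share of members called was below that of all genes. An unadjusted p under 0.05 in edgeR was found for 11 of 33 members, against 57.2% of all genes. The log2 difference was below 0 for 27 of 33 members, with a median of -0.34, against -0.005 over all genes. Ifi35 averaged 46.6 ± 4.86 CPM in 4T1 control libraries and 80.0 ± 8.499 CPM in MT control libraries (SD, n = 4 each), a log2 difference of -0.78 with an SE of 0.15 (adjusted p = 8.14e-05). Cmpk2 averaged 26.3 ± 1.66 CPM in 4T1 control libraries and 61.9 ± 18.6 CPM in MT control libraries, a log2 difference of -1.23 with an SE of 0.36 (adjusted p = 0.00631). The groups of both genes did not overlap. Isg15 averaged 45.9 ± 6.56 CPM in 4T1 control libraries and 107 ± 34.9 CPM in MT control libraries, a log2 difference of -1.23 with an SE of 0.38 (adjusted p = 0.00894). Ifit3 averaged 36.3 ± 5.64 CPM in 4T1 control libraries and 89.9 ± 14.5 CPM in MT control libraries, a log2 difference of -1.31 with an SE of 0.41 (adjusted p = 0.00892). Ifit1 averaged 49.5 ± 4.30 CPM in 4T1 control libraries and 100.01 ± 20.97 CPM in MT control libraries, a log2 difference of -1.02 with an SE of 0.38 (adjusted p = 0.0257). These 3 did not overlap either, and nor did Xaf1, whose log2 difference was -0.77 with an SE of 0.28 (adjusted p = 0.0263). Trim30a averaged 96.0 ± 11.3 CPM in 4T1 control libraries and 54.0 ± 37.5 CPM in MT control libraries, a log2 difference of 0.83 with an SE of 0.34 (adjusted p = 0.0436). MT control replicate 4, at 110.2 CPM, lay just above the highest 4T1 control, so the groups overlapped. Without overlap 9 members were lower and 1 higher (Ifi44), against 20.3% and 25.6% of all genes. Trim30a had the opposite sign, -0.19 (adjusted p = 0.645), without the 6 MT libraries with high Sox10, where 3 members were called, all lower (Isg15, Isg20 and Oas3). The number of members called was 4 without 4T1 control replicate 3, 19 in a fit of the 2 groups alone and 17 with weighted limma voom. For these fits the shares of all genes called are not given here.

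The difference between the poly I:C responses of the models, 4T1 minus MT, was called for no member, against 5.7% of all genes higher and 5.42% lower. DESeq2 called 0 and weighted limma voom 7, and the shares of all genes called by these methods are not given here. In edgeR 3 of 33 members had an unadjusted p under 0.05, against 5102 of 18956 genes (26.9%). These were Mx2 (log2 difference 1.31 ± 0.62), Bst2 (1.08 ± 0.46) and Cmpk2 (1.06 ± 0.51), each with its SE and the smallest adjusted p at 0.129. The median over the members was 0.29. Sox10 was above 10 CPM in MT control replicates 1 to 3 and at most 2.25 CPM in MT poly I:C libraries. Poly I:C and tumour state therefore cannot be told apart in most of the MT part of this difference. Without 4T1 poly I:C replicate 4 edgeR called Bst2 higher, and without MT control replicate 4 it called Trim30a lower.

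Genes of the same pathway that are not among the 33 were read from lists of receptors, kinases and regulators, of double-stranded RNA sensors and of interferon-gamma targets. With poly I:C in 4T1, 0 of 15 receptors, kinases and regulators, 1 of 8 sensors and 0 of 7 interferon-gamma targets were called higher, and none lower. Over all genes 3.26% were higher and 3.06% lower. The sensor was Eif2ak2, the kinase PKR, at a log2 fold change of 0.35 with an SE of 0.09 (adjusted p = 0.0419). Irf7, the factor that amplifies interferon transcription, measured 240.0, 233, 221 and 40.1 CPM with poly I:C, against 58.8, 96.0, 68.2 and 90.8 CPM in 4T1 controls. Replicates 1 to 3 were above every control and replicate 4 below every control, and the log2 fold change was 1.24 with an SE of 0.47 (adjusted p = 0.121). With poly I:C in MT, where 8.52% of all genes were called higher and 11.1% lower, 2 of 15 receptors, kinases and regulators rose. These were Jak2 at 0.91 with an SE of 0.15 (adjusted p = 0.00262) and Ifngr1, a chain of the interferon-gamma receptor, at 1.13. None of the 8 sensors passed, and 3 of 7 interferon-gamma targets rose. They were the chemokine genes Cxcl9 at 1.81 with an SE of 0.42 (adjusted p = 0.0106) and Cxcl10 at 1.98, and Ciita, the regulator of MHC class II, at 1.06. Ifng itself measured 9.91, 24.5, 17.5 and 16.3 CPM in MT poly I:C libraries, against 5.21, 4.38, 6.96 and 5.13 CPM in MT controls. The groups did not overlap, and Ifng rose by 1.67 with an SE of 0.39 (adjusted p = 0.0113) on the log2 scale. In 4T1 the log2 fold change of Ifng was -0.48 with an SE of 0.37 (adjusted p = 0.456). The summed level of 5 T and NK cell markers was 127 to 369 CPM in MT poly I:C libraries, against 35.3 to 251 CPM in MT controls, and their part in these values was not tested. Sox10 was above 10 CPM in MT control replicates 1 to 3, so poly I:C and tumour state cannot be told apart for these genes either.

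In untreated tumours, 6 of 7 interferon-gamma targets were lower in 4T1 than in MT and the other did not pass the test. Gbp2, an interferon-inducible GTPase, averaged 364 ± 41.9 CPM in 4T1 control libraries and 1170.2 ± 174 CPM in MT control libraries (SD, n = 4 each), a log2 difference of -1.68 with an SE of 0.30 (adjusted p = 4.25e-05). Cxcl9 differed by -2.12 on the log2 scale. Of 15 receptors, kinases and regulators, 4 were higher in 4T1 (Ifnar1, Ifngr1, Il10rb and Jak2) and 2 lower (Irf1 and Socs1), and of 8 sensors Dhx58 and Zbp1 were lower. Over all genes 26.7% were higher and 25.2% lower. The share of receptors, kinases and regulators called higher and the share of sensors called lower were close to these. Sox10 was above 10 CPM in MT control replicates 1 to 3, and the part of this tumour state in the differences was not tested. Jak2 averaged 598 ± 84.4 CPM in 4T1 control libraries and 83.1 ± 11.6 CPM in MT control libraries, a log2 difference of 2.85 with an SE of 0.16 (adjusted p = 8.74e-13).

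Epsti1 and Sp100 differed from most other members in which libraries were high. Epsti1, an interferon-inducible gene described in contacts of epithelial and stromal cells, measured 162, 37.2, 33.8 and 118 CPM in MT combination, 32.8, 48.7, 109 and 42.4 CPM in MT poly I:C, 31.9, 28.5, 25.9 and 123 CPM in MT phenformin and 44.2, 32.9, 31.3 and 60.9 CPM in MT control libraries. Igkc measured 8738, 122, 27.9 and 2087 CPM in MT combination, 32.0, 24.3, 2592 and 237 CPM in MT poly I:C, 7.56, 3.93, 39.6 and 3059 CPM in MT phenformin and 3.03, 16.9, 12.4 and 307 CPM in MT control libraries. The 4 libraries with Igkc above 1000 CPM held the 4 highest Epsti1 values, 109 to 162 CPM, whichever arm they came from, and all other MT libraries were at 25.9 to 60.9 CPM. In 4T1 the highest Epsti1 values were in poly I:C replicate 1 (71.4 CPM), phenformin replicate 2 (71.0 CPM) and control replicate 4 (49.6 CPM), the 3 libraries with Igkc above 100 CPM, and the other 12 were at 20.9 to 37.9 CPM. Sp100, a nuclear body protein, measured 263, 121, 125 and 163 CPM in MT combination, 116, 131, 203 and 132 CPM in MT poly I:C, 55.4, 45.3, 102 and 256 CPM in MT phenformin and 44.6, 47.6, 44.9 and 148 CPM in MT control libraries. Its 4 highest MT values were in the same 4 libraries. It was highest in combination replicate 1 and phenformin replicate 4, where most other members were lowest, and it was at 44.6 to 102 CPM in the 6 libraries with high Sox10. The part of lymphoid content in these values was not tested. Neither gene passed the test in any comparison.

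**Figure D5:**
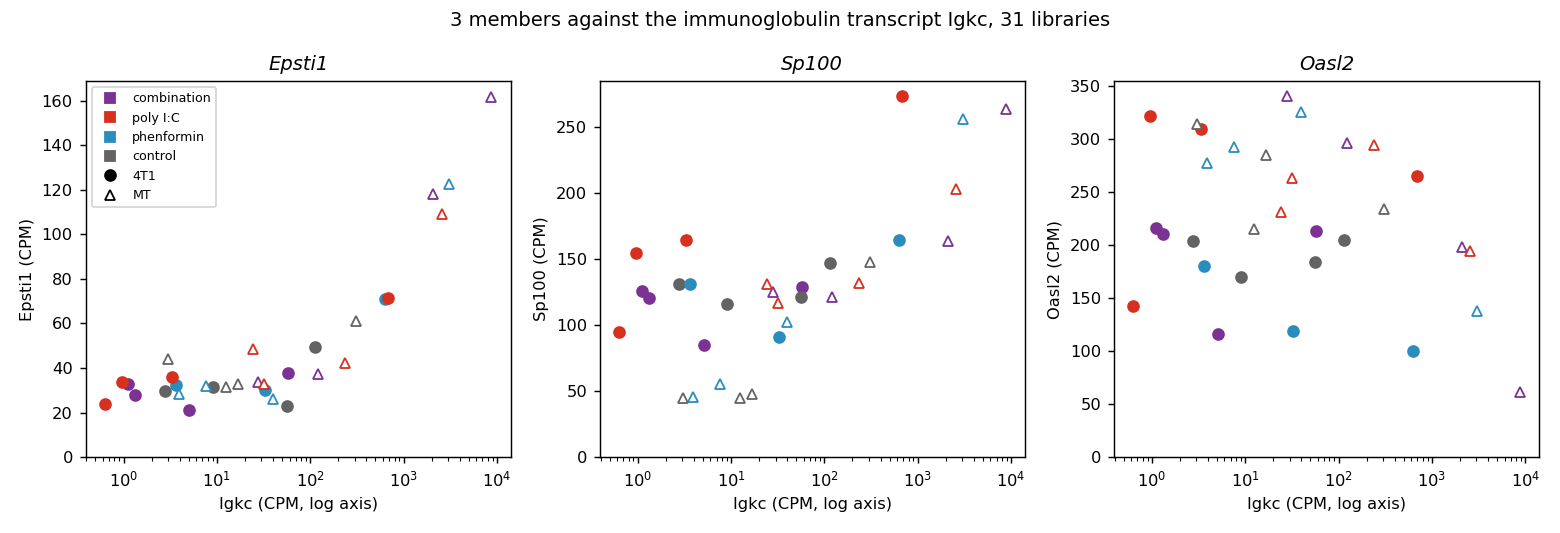
CPM of Epsti1, Sp100 and Oasl2 (linear axes) against CPM of Igkc (log axis), with a point for each of 31 libraries, circles for 4T1, triangles for MT and colours for the arms. Epsti1 is above 100 CPM in the 4 MT libraries with Igkc above 1000 CPM, and Oasl2 in the same 4 libraries lies at 61.0 to 198 CPM, below the other 12 MT libraries.

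Members lie on 13 chromosomes, and several are neighbours (coordinates in GRCm38). Rsad2 (chromosome 12, 26442746 to 26456452, minus strand) and Cmpk2 (chromosome 12, 26469204 to 26479837, plus strand) are divergent genes 12.8 kb apart, and with poly I:C in 4T1 their log2 fold changes were 1.60 and 0.60. Ifit2, Ifit3 and Ifit1 follow each other on chromosome 19, with gaps of 7.1 and 52.1 kb. With poly I:C in MT, Ifit2 rose by 1.14 on the log2 scale, while Ifit3 and Ifit1 had values of 0.13 and -0.01, and differences between these genes were not tested. Oas2, Oas3 and Oas1a lie on chromosome 5, as do Oasl2 and Oasl1, 11005 bases apart, and Mx1 and Mx2 lie 72.4 kb apart on chromosome 16. Dtx3l and Parp9 overlap on opposite strands of chromosome 16, sharing 458 exonic bases, 8.0% of the Dtx3l and 9.4% of the Parp9 exon length. Ifi35 shares 290 bases (16.8%) with the antisense gene Gm11626. The libraries were strand-specific, but the strand setting of the counting is not given in the sources used here, so reads in these stretches may be assigned to either gene or to none. Several members have copies from the same gene family in the table, and how alike their sequences are was not measured. They are Ifit3b, Ifit1bl1 and Ifit1bl2, Oas1b, Oas1c and Oas1g, and Trim30b, Trim30c and Trim30d. The values of Ifit1, Ifit3, Oas1a and Trim30a are uncertain to the extent that counting divided reads between copies. Of these 9 copies, none was called with poly I:C in 4T1. In MT 2 of 8 tested copies rose, against 8.52% of all genes higher and 11.1% lower. These were Trim30d at 2.02 with an SE of 0.30 (adjusted p = 0.00179) and Trim30c at 2.97, the same direction as Trim30a. Poly I:C and the tumour state with high Sox10 cannot be told apart here either.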

How the data were processed

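Poly(A) RNA from 31 mouse tumour libraries was measured. Per the submitters' processing notes, the tools were Trimmomatic 0.32.48, STAR 2.3.0 and featureCounts 1.4.4, with build mm10/GRCm38. The labels' protocols give RNeasy RNA from pellets or frozen tissue and strand-specific libraries. The annotation release and strand setting are not given in the sources used here. The authors deposited raw whole-number counts per gene; 8371 of 39017 genes were 0 in every library. GENCODE M21 held 37607 of the gene identifiers and gave positions and exon lengths.

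Counts were tested with edgeR 4.0.16 in R 4.3.3 by the quasi-likelihood F-test. The filter was filterByExpr with a minimum count of 10 and a minimum total of 15, scaling was by TMM, and p-values were adjusted by Benjamini-Hochberg with a threshold of 0.05. A fit per model covered its 4 arms (17445 genes for 4T1, 17857 for MT), and a joint fit of all libraries (18956 genes) compared models. Standard errors are the fold change on the log2 scale divided by the square root of F. Log2 CPM used a pseudocount of 0.5. The script was tested on simulated data. No 2 libraries of a group agreed within sampling noise, the smallest chi-square per degree of freedom being 9.53. Alternatives were DESeq2 1.42.0, voom with library quality weights (limma 3.58.1), other scaling and filters, the replicate number as a block, fits of only the groups compared, and omission of single libraries or of libraries with high Acta1, Igkc or Sox10; the omission of MT libraries by Igkc was chosen after seeing the data. The members, marker lists and pathway lists were chosen with earlier results of these data known. Members called in any comparison, and the member of each role group with the highest mean log2 CPM over all libraries, are given in every library. Pathway genes named are among the 6 with the smallest p of a list. A gene of the pathway lists is not reported here.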

Additional observations from a re-analysis of the deposited data

Results flagged for a closer look

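Dixon's test at the 95% level was run on log2 CPM in 231 combinations of a member and a group of 4 libraries. In 38 of them, 1 library lay apart from the other 3. Chance alone meets this limit in about 1 in 20 independent groups. Members often moved together within a library, so these combinations are not independent. Values are CPM.

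In 4T1 combination replicate 2 was far below the other combination libraries for Ifit1 (28.6), Ifit3 (20.2), Oas3 (16.1), Oasl2 (116), Mx2 (4.57), Isg15 (23.6), Usp18 (16.7) and Sp100 (84.9). Poly I:C replicate 4 was far below the other poly I:C libraries for Ifit1 (34.2), Ifit3 (20.9), Oas1a (35.9), Oasl1 (15.6), Ddx60 (50.1), Mx1 (5.11), Mx2 (5.36), Rsad2 (17.1), Cmpk2 (17.02), Isg15 (26.4), Usp18 (23.9) and Trim30a (96.4). In the same library the 6 neutrophil markers were also the lowest of the group. Control replicate 2 was low for Trim25 (126).

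In MT, combination replicate 1 was far below the other combination libraries for Oas1a (26.0), Isg15 (44.0), Usp18 (19.2), Bst2 (81.6), Xaf1 (35.9) and Rtp4 (36.1). Phenformin replicate 4 was low for Oas1a (38.0) and high for Epsti1 (123), phenformin replicate 3 high for Isg15 (178) and phenformin replicate 2 low for Samd9l (67.0). Poly I:C replicate 3 was high for Oasl1 (32.3) and low for Herc6 (83.7). Control replicate 4, the control with low Sox10, was high for Trim30a (110.2), Parp9 (249) and Sp100 (148), and control replicate 3 low for Oasl1 (13.7) and Lgals3bp (249). No cause of these gaps was tested.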

How the results depend on the processing

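Values are numbers of the 33 members called, and the cause of a change was not tested. The share of all genes called in each fit is not given in this section. A number alone does not show whether the members changed more than other genes. For poly I:C over control in 4T1 (6), DESeq2 and voom with library quality weights (voom below) gave 14, a fit of only the 2 groups 1, the replicate block 2, omission of libraries with high Acta1 0 and with high Igkc 0, and omission of single libraries 1 to 23. For the 4T1 average poly I:C effect (8), DESeq2 gave 16, the replicate block 3, both omissions 0, and single omissions 0 to 24. For the 4T1 combination DESeq2 gave 1 over control and 1 against poly I:C (both 0), where voom gave 3 and single omissions 0 to 8. For MT poly I:C over control (3), DESeq2 gave 6, voom 16, only the groups 8, omission of high-Igkc libraries 9 and of high-Sox10 libraries 0, and single omissions 1 to 5. For the MT combination over control (1), DESeq2 gave 2, voom 14, no filter 0, only the groups 0, the high-Igkc omission 2, the high-Sox10 omission 0 and single omissions 0 to 4. Voom gave 2 for the MT combination against poly I:C and 10 against phenformin (both 0). For the MT average (3), DESeq2 gave 5, voom 14, the high-Igkc omission 9, the high-Sox10 omission 0 and single omissions 2 to 7. For 4T1 against MT controls (7), voom gave 17, only the groups 19, the high-Sox10 omission 3 and single omissions 4 to 9, and Trim30a turned to -0.19. For the response difference (0), voom gave 7 and single omissions 0 to 1. Equal replicate numbers did not pair libraries: deviations of same-numbered libraries correlated from -0.52 to 0.21 in 4T1 and -0.80 to 0.77 in MT, and 8 of 31 libraries correlated best with their own number. The block moved no other number of calls by over 1.5 times. The lowest count of a member was 67, and the effect of depth on the calls was not tested.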
